A study of Mus musculus with 20 samples.

Results

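The 35 genes described here encode the enzymes and transporters of glycolysis, of the lactate and pyruvate steps that follow it and of the pentose phosphate pathway, together with Hif1a, the oxygen-regulated subunit of the transcription factor HIF-1. They were taken by symbol from a list of pathway members, out of 50686 genes in the count table. The list was chosen with earlier results of these data known. Of these 35 genes, 34 had enough counts to be tested. The exception was Ldhb, the heart-type lactate dehydrogenase subunit, which had a single count, in RANKL 4 h library 2, and none in the other libraries.

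Glycolysis traps glucose as glucose 6-phosphate (hexokinases), commits it at the phosphofructokinase step and converts it through aldolase, enolase and pyruvate kinase to pyruvate. Pyruvate is reduced to lactate and exported by monocarboxylate transporters, or is used in mitochondria by pyruvate dehydrogenase, which its kinases switch off. The pentose phosphate pathway draws on the same glucose 6-phosphate: its oxidative enzymes make NADPH, and transketolase and transaldolase return sugars to glycolysis. Osteoclasts, the bone-resorbing cells of the macrophage lineage, are known for dense mitochondria and also use glycolysis.

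The cells were RAW264.7, 1 mouse macrophage-like tumour line that forms osteoclasts when given RANKL, the TNF-family cytokine that drives osteoclast differentiation. Untreated cells (hour 0) were compared with cells given RANKL (50 ng/ml), I-BET (500 nM; an inhibitor of the BET bromodomain proteins that read acetylated histones; which I-BET compound is not stated), or both, for 4, 14 or 24 h. Each of these 10 groups had 2 libraries of poly(A) RNA. No untreated cells were taken at 4, 14 or 24 h, so treatment and hours in culture cannot be told apart in comparisons with untreated cells. The labels name the line but give bone marrow as the source, and they do not say that the 2 libraries of a group came from separate cultures, so p-values measure the spread between these libraries, which may be technical. Levels are given as RPKM (reads per kilobase of gene, scaled to the library total), which allows comparison between genes per length. In bulk RNA, fewer cells of a kind and less RNA per cell cannot be told apart.

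The libraries held 19051780 to 62313792 counts in genes. Untreated library 2 had a normalization factor of 0.9004, against 0.9316 to 1.063 in the other 19 libraries, so its RPKM values read slightly low beside the fitted fold changes. All 8 macrophage markers checked were present, with a summed level of 4979 to 5169 RPKM in untreated cells, 1426 to 1696 with RANKL at 24 h, 3687 to 3692 with I-BET at 24 h and 2655 to 3063 with both. The 7 osteoclast markers summed to 33.7 to 59.4 RPKM in untreated cells, 231 to 294 with RANKL at 24 h and 7.02 to 10.7 with both at 24 h, and 1 of the 7, the calcitonin receptor gene, had at most 3 counts in any library. Marker lists of T cells, B cells, epithelium, fibroblasts and osteoblasts, and endothelium each summed to at most 0.316 RPKM. The shift of macrophage and osteoclast markers moved with RANKL and with I-BET, and its part in the changes below was not tested.

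Among the 34 tested genes, pyruvate kinase (Pkm) had the highest level, from 657 to 1407 RPKM across the 20 libraries. Ldha, Pgk1, Aldoa, Gapdh and Eno1 followed, all above 188 RPKM in every library. At the other end stood Pfkfb3 and Pfkfb4, which encode the enzymes that set fructose 2,6-bisphosphate, at 2.55 to 4.27 and 2.38 to 4.71 RPKM. Group means spanned a median of 1.632-fold from the lowest to the highest of the 10 groups. Aldoc had the widest span, 3.756-fold between RANKL at 14 h and both agents at 24 h, followed by Slc16a3 (2.746-fold), Hk3 (2.583-fold), Pfkl (2.518-fold), G6pdx (2.245-fold) and Pfkm (2.03-fold). The narrowest was Gpi1, glucose-6-phosphate isomerase, at 1.121-fold, and 10 genes spanned less than 1.5-fold.

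Promoter sequence is shown for 6 members whose RANKL or I-BET response is described below, because HIF-1 binds the cores ACGTG and GCGTG, and MYC-MAX dimers bind CACGTG, a motif that contains ACGTG. Each window is the 250 bases before the RefSeq transcription start on GRCm38.p6, 5′ to 3′ on the gene's strand. Capitals mark ACGTG and GCGTG on either strand (those on the other strand read CACGT and CACGC as printed). The first 3 genes (G6pdx, Pgd, Aldoc) were lower with RANKL at 14 or 24 h and higher when I-BET was added, and the last 3 (Slc16a1, Hk2, Pdha1) were higher with RANKL. The windows lie at chrX:74428881-74429130 (minus strand, G6pdx), chr4:149166706-149166955 (minus, Pgd), chr11:78322823-78323072 (plus, Aldoc), chr3:104638414-104638663 (plus, Slc16a1), chr6:82774455-82774704 (minus, Hk2) and chrX:160138431-160138680 (minus, Pdha1). For G6pdx, the deposited gene model begins 314 bases upstream of the RefSeq start, so this window lies inside it. For Pgd and Aldoc it begins 66 and 105 bases upstream, so those windows lie partly inside.
G6pdx: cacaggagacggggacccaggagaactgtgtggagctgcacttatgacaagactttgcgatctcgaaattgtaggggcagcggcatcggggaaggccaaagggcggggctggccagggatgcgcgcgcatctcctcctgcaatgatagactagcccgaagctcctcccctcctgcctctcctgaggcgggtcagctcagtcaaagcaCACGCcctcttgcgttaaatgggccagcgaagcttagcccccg
Pgd: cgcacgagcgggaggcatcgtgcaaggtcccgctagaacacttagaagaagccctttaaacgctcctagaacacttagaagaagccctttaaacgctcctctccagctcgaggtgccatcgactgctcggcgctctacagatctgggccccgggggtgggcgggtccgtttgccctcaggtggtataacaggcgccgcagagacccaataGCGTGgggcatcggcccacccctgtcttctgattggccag
Aldoc: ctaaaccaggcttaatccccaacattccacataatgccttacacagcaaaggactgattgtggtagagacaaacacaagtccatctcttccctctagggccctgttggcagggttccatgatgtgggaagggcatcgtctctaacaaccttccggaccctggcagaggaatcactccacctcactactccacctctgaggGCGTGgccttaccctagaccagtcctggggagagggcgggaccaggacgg
Slc16a1: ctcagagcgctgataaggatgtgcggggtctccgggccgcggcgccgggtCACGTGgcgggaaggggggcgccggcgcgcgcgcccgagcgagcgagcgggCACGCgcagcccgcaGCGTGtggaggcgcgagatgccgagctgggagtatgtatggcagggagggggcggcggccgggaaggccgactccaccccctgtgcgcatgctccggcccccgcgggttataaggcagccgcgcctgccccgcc
Hk2: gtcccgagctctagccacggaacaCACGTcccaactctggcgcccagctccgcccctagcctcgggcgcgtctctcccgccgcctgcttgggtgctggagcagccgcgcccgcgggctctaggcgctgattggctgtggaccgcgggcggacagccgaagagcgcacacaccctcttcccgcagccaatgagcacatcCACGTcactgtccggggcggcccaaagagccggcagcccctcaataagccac
Pdha1: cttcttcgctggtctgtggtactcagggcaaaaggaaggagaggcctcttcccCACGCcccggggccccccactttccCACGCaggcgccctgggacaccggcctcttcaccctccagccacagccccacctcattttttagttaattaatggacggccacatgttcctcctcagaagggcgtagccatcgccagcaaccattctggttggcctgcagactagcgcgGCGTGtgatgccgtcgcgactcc
All 35 genes matched a RefSeq window, and each is represented by the start nearest the 5′ end of its deposited gene model. The 32851 windows used for comparison include every listed start, and some genes have several. The shares below are therefore over sets built differently. ACGTG occurred in 13 of the 35 (37.143%), against 16.572% of all 32851 windows, and GCGTG in 21 (60% against 28.157%). CACGTG occurred in 4 (11.429% against 6.021%): Pfkm, Ldha, Slc16a1 and Hif1a. The windows of Ldha and Hif1a belong to RefSeq starts 4329 and 6492 bases from the 5′ end of the deposited gene model. The members' windows were also richer in G and C, with a median of 60.4% against 52.4%. The windows of G6pdx, Pgd and Aldoc each hold 1 GCGTG and no ACGTG, Pdha1 holds 3 GCGTG, Hk2 holds 2 ACGTG, and Slc16a1 holds 2 GCGTG and 1 CACGTG, whose strands both read ACGTG. A match is a description of these letters and not evidence of binding.

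RANKL against untreated cells addresses how the pathway changed as the cells began to differentiate, hours in culture included. At 24 h the oxidative pentose phosphate genes G6pdx and Pgd fell, as did Taldo1, while the glycolysis genes Hk2, Pgam1 and Eno1 rose. The pyruvate dehydrogenase gene Pdha1 rose, and so did Pdk3, which encodes a kinase that switches that enzyme off. Within enzyme families the isoforms parted: Hk2 rose and Hk3 fell, and Eno1 rose and Eno3 fell. Called means a Benjamini-Hochberg adjusted p under 0.05 in edgeR's quasi-likelihood test over 16042 genes. Called higher and lower were 0 and 1 of 34 members at 4 h (background 2.08% and 1.83% of all genes), 3 and 6 at 14 h (8.31% and 10.1%), and 5 and 5 at 24 h (8.04% and 10.9%). The members' median log2 fold change was -0.12, 0.05 and 0.13 at the 3 hours, against 0.01, 0.03 and 0.05 over all genes.

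Same-numbered libraries of different groups deviated together, so a fit with the library number as a block is given beside the counts. With that block, 2 members were higher and 7 lower at 4 h (background 6.72% and 7.77%), 8 and 9 at 14 h (19.1% and 17.2%), and 15 and 7 at 24 h (18.7% and 18.1%). Of the 34 members, 13 were called in none of the 17 comparisons made without the block, and Gpi1 and Pfkfb3 in none with it.

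**Figure D1:**
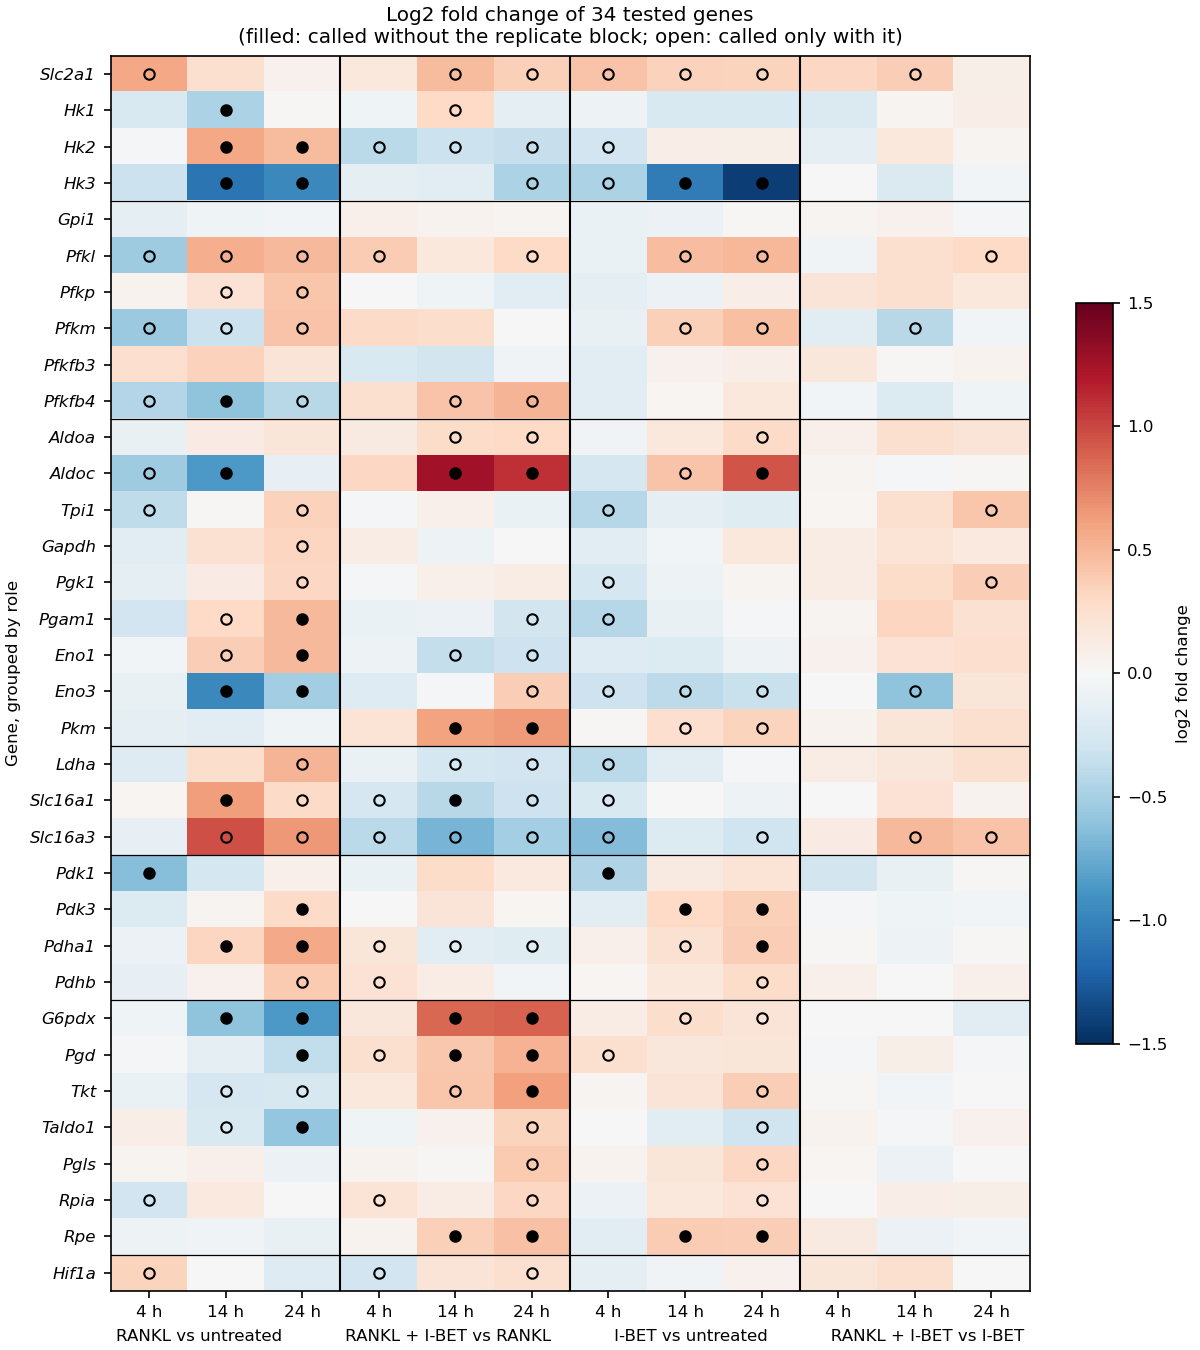
Log2 fold change (colour) of each of the 34 tested genes (rows, grouped by role) at 4, 14 and 24 h in 4 comparisons (columns). Filled circles mark genes called without the library-number block and open circles those called only with it; the pentose phosphate rows are blue with RANKL at 24 h and red when I-BET was added, and the columns of both agents against I-BET alone hold no filled circle.

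G6pdx encodes glucose-6-phosphate dehydrogenase, the first and rate-limiting enzyme of the oxidative branch. Its level was 124 and 95.2 RPKM in the 2 untreated libraries, 119 and 101 with RANKL at 4 h, 74.7 and 68.6 at 14 h, and 61.6 and 62.6 at 24 h. All 4 libraries at 14 and 24 h lay below all 4 untreated and 4 h libraries. The log2 fold change against untreated was -0.61 ± 0.12 (SE) at 14 h (adjusted p 0.00343) and -0.86 ± 0.12 at 24 h (0.000218), and both calls held without any 1 of the libraries compared. Ikbkg, on the opposite strand, overlaps 13.57% of the G6pdx exon bases, and the strand setting of the counting is not given in the sources used here. Ikbkg moved the other way, by 0.50 ± 0.09 at 14 h (adjusted p 0.00121).

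Pgd, 6-phosphogluconate dehydrogenase, makes the pathway's other NADPH. It stood at 102 and 90.6 RPKM untreated, 103 and 96.7 with RANKL at 4 h, 79.8 and 93.5 at 14 h, and 75.3 and 79.2 at 24 h. The fall at 24 h was -0.36 ± 0.10 (adjusted p 0.0179), with both libraries below both untreated ones. The call ended without either untreated library or without RANKL 24 h library 1 (adjusted p 0.0817 to 0.13). Taldo1, transaldolase, went from 166 and 159 RPKM untreated to 99.1 and 126 at 24 h, a change of -0.58 ± 0.19 (adjusted p 0.0486) that was lost without either untreated library or RANKL 24 h library 1 (0.116 to 0.31). The block added transketolase (Tkt) to the genes called lower, at 14 h (-0.26, adjusted p 0.00944) and 24 h (-0.25, 0.0132). In that fit 4 of the 7 pentose phosphate genes were lower and none higher at 24 h (background 18.1% and 18.7%).

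Hk3 fell the most of the hexokinases. It was at 9.45 and 8.82 RPKM untreated, 7.27 and 8.05 with RANKL at 4 h, 3.86 and 4.67 at 14 h, and 4.05 and 5.56 at 24 h, and the libraries at 14 and 24 h did not overlap the earlier ones. The changes were -1.10 ± 0.20 at 14 h (adjusted p 0.00192) and -0.97 ± 0.20 at 24 h (0.00416), the latter lost without RANKL 24 h library 1 (0.0565). Hk2, the inducible hexokinase, went the other way, from 19.7 and 17.9 RPKM untreated to 27.3 and 29.0 at 14 h and 28.3 and 25.8 at 24 h. Its changes were 0.58 ± 0.13 (adjusted p 0.00649) and 0.48 ± 0.13 (0.0203). The call at 14 h ended without untreated library 1 or RANKL 14 h library 2 (0.0526 to 0.0663), and that at 24 h without any 1 of the 4 libraries (0.0578 to 0.118). Hk1 was lower at 14 h, at 10.8 and 12.3 RPKM against 17.7 and 14.7 (-0.48 ± 0.12, adjusted p 0.0145), and this was lost without either untreated library or RANKL 14 h library 1 (0.0561 to 0.145). At 24 h Hk1 was at 14.96 and 18.5 RPKM, and its libraries overlapped the untreated ones.

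At the phosphofructokinase step, Pfkfb4 was lower at 14 h, at 2.38 and 2.58 RPKM against 3.85 and 3.65 (-0.60 ± 0.18, adjusted p 0.0354), a call that ended without any 1 of the 4 libraries (0.0776 to 0.188). With the block, the liver-type Pfkl was lower at 4 h (-0.52, adjusted p 7.62e-05) and higher at 14 h (0.52, 2.07e-05) and 24 h (0.47, 6.36e-05). Pfkp was higher at 14 h (0.22, 0.0287) and 24 h (0.41, 0.000269) in that fit. The muscle-type Pfkm was lower at 4 h (-0.54, 0.00199) and 14 h (-0.32, 0.028) and higher at 24 h (0.42, 0.00469). Pitrm1, on the opposite strand, overlaps 5.58% of the Pfkp exon bases, with a mean of 5962 counts per library against 6202 for Pfkp. Without the block Pitrm1 also rose with RANKL, by 0.39 ± 0.07 at 14 h (adjusted p 0.00178) and 0.28 ± 0.07 at 24 h (0.0137). The Pfkp value is uncertain to that extent.

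In the trunk from aldolase to pyruvate kinase, Aldoc, the brain-type aldolase, was lowest at 14 h. It was at 15.4 and 12.97 RPKM untreated, 10.8 and 9.76 with RANKL at 4 h, 6.66 and 8.89 at 14 h, and 11.7 and 15.1 at 24 h, so that the 14 h libraries were the lowest and those at 24 h overlapped the untreated ones. The change at 14 h was -0.86 ± 0.16 (adjusted p 0.00201). Eno3, the muscle enolase, fell from 15.3 and 13.8 RPKM to 7.14 and 7.72 at 14 h (-0.97 ± 0.17, adjusted p 0.00111) and stood at 8.88 and 12 at 24 h (-0.52 ± 0.17, 0.0428). Both 14 h calls held without any 1 of the 4 libraries compared, whereas that of Eno3 at 24 h ended without either untreated library or RANKL 24 h library 1 (0.139 to 0.32).

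Eno1, the main enolase here, rose from 219 and 196 RPKM untreated to 267 and 332 at 24 h (0.48 ± 0.14, adjusted p 0.0251). Pgam1, phosphoglycerate mutase, rose from 116 and 105 RPKM to 133 and 186 (0.49 ± 0.15, adjusted p 0.0388). Both calls ended without either untreated library or RANKL 24 h library 2 (Eno1 0.13 to 0.263, Pgam1 0.167 to 0.455). Eno1b, a near copy, held 12.3% to 16.1% of the summed Eno1 and Eno1b counts, so reads of the pair may have been split and the Eno1 value is uncertain to that extent. With the block, Tpi1 (0.31), Gapdh (0.31) and Pgk1 (0.29) were also called higher at 24 h, with adjusted p 0.0156, 0.00804 and 0.0114. In that fit 5 of 9 trunk genes were higher and 1 lower (background 18.7% and 18.1%). Without the block and without RANKL 24 h library 2, Tpi1 and Pgk1 were at -0.12 and -0.10.

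Of the lactate genes, the lactate and pyruvate transporter Slc16a1 rose from 84.9 and 83.0 RPKM to 128 and 132 at 14 h (0.63 ± 0.12, adjusted p 0.00273), with and without each of the 4 libraries, and stood at 109 and 103 at 24 h (block 0.29, adjusted p 0.00436). Slc16a3, the lactate exporter, differed more between the libraries of a group than any other member. It was at 20.6 and 27.4 RPKM untreated and at 31.7 and 62.6 with RANKL at 14 h, and passed only with the block (0.91 ± 0.11, adjusted p 5.52e-06; at 24 h 0.60 ± 0.11, 0.000403). Ldha, the muscle-type lactate dehydrogenase subunit, was at 404 and 434 RPKM untreated and 490 and 740 with RANKL at 24 h, again called with the block alone (0.48 ± 0.10, adjusted p 0.000477).

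Pdha1, the catalytic alpha subunit of pyruvate dehydrogenase, rose with time. Its level was 27.6 and 25.9 RPKM untreated, 26.1 and 26.7 with RANKL at 4 h, 32.8 and 33.9 at 14 h, and 40.1 and 41.7 at 24 h, with no overlap between 24 h, 14 h and the earlier libraries. The changes were 0.32 ± 0.09 at 14 h (adjusted p 0.0201) and 0.57 ± 0.09 at 24 h (0.000364). That at 14 h ended without either untreated library or RANKL 14 h library 2 (0.0756 to 0.176), and that at 24 h held without any 1 of the 4. Map3k15, on the opposite strand, overlaps 16.15% of the Pdha1 exon bases and also rose, by 0.67 ± 0.22 at 14 h (adjusted p 0.0444) and 0.74 ± 0.22 at 24 h (0.0284); its mean of 298.6 counts per library compares with 5577 for Pdha1.

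Of the kinases that switch pyruvate dehydrogenase off, Pdk1 fell early, from 11.04 and 10.2 RPKM untreated to 7.66 and 6.66 with RANKL at 4 h (-0.64 ± 0.13, adjusted p 0.0137). This was the single call of 4 h, and it ended without any 1 of the 4 libraries (0.0595 to 0.152). Pdk3 stood at 16.2 and 14.5 RPKM untreated, 14.5 and 13.6 with RANKL at 4 h, 16.3 and 15.3 at 14 h, and 18.8 and 19.8 at 24 h. The rise at 24 h, 0.29 ± 0.09 (adjusted p 0.037), was lost without any 1 of the 4 libraries (0.0522 to 0.222). With the block, the glucose transporter Slc2a1 (0.58, adjusted p 0.000541) and Hif1a (0.33, 0.0102) were called higher at 4 h, where Hif1a was at 44.6 and 37.9 RPKM against 33.6 and 29.0 untreated.

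**Figure D2:**
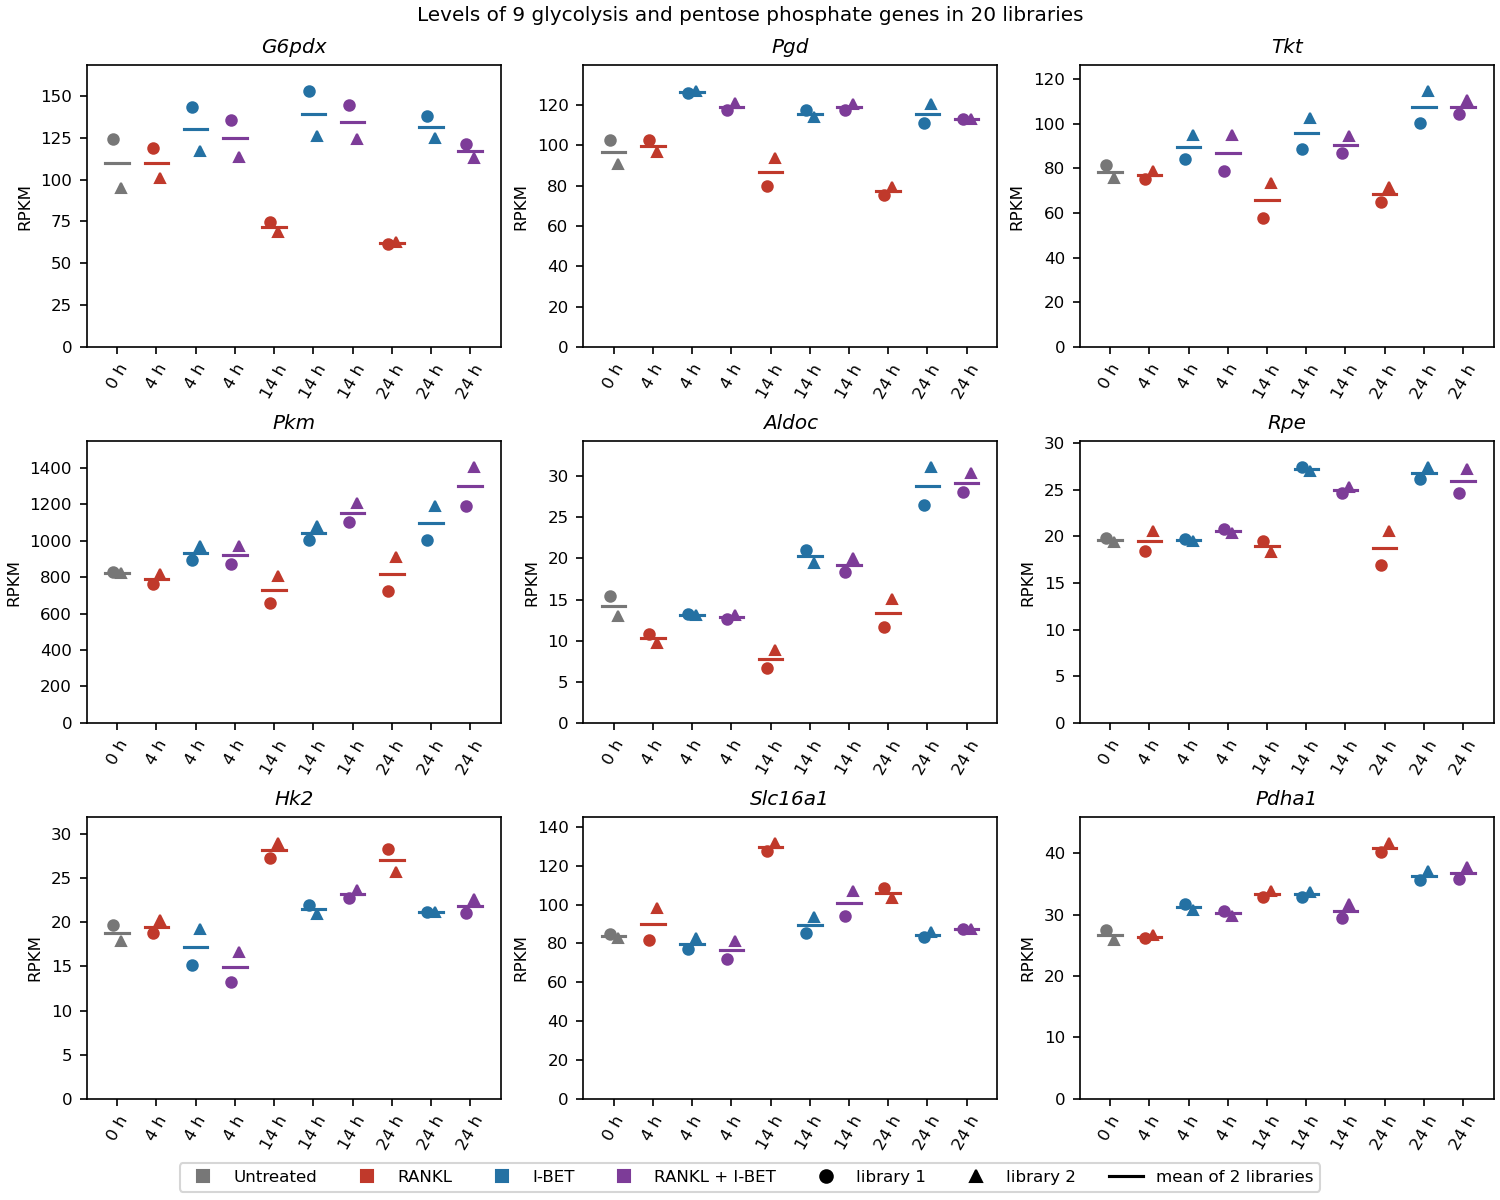
RPKM (vertical axis, from 0) of 9 members in the 20 libraries, in order of hour along the horizontal axis; colours are treatments, circles library 1, triangles library 2, and lines the mean of 2 libraries. RANKL alone at 14 and 24 h is the lowest for G6pdx, with 61.6 to 74.7 RPKM, and its group means are the highest for Hk2 and Slc16a1.

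Both agents against RANKL alone shows what I-BET changed in RANKL-treated cells. At 14 and 24 h the pentose phosphate genes G6pdx, Pgd and Rpe, the aldolase Aldoc and the pyruvate kinase Pkm rose, joined at 24 h by Tkt, and Slc16a1 fell at 14 h. Called higher and lower were 0 and 0 members at 4 h (background 4.93% and 6.46%), 5 and 1 at 14 h (10.8% and 11.2%) and 6 and 0 at 24 h (13.9% and 12.9%). At 4 h, 3 members had an unadjusted p under 0.05 and DESeq2 called 1. With the block the counts were 5 and 4 (13.7% and 14.4%), 10 and 6 (19.7% and 20.6%) and 15 and 8 (23.1% and 23.5%). The median log2 fold change of the members was 0.09 at 14 h and 0.07 at 24 h, against -0.03 and -0.05 over all genes. These comparisons share the RANKL libraries with the preceding ones, so a gene low in those libraries appears in both.

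G6pdx was at 136 and 114 RPKM with both agents at 4 h, 145 and 124 at 14 h and 121 and 113 at 24 h. All 4 libraries at 14 and 24 h were above the 4 RANKL libraries of those hours. The change was 0.86 ± 0.12 at 14 h (adjusted p 0.00021) and 0.88 ± 0.12 at 24 h (0.000118), with both calls kept without any 1 of the libraries compared. Ikbkg, which overlaps it, was lower by -0.69 ± 0.09 at 14 h (adjusted p 7.32e-05) and by -0.33 ± 0.09 at 24 h (0.0115).

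Pgd was at 117 and 121, 117 and 120, and 113 and 113 RPKM with both agents at 4, 14 and 24 h, a nearly flat course above every RANKL library of its hour. Its change was 0.41 ± 0.10 at 14 h (adjusted p 0.00814) and 0.52 ± 0.10 at 24 h (0.00131), and the first ended without RANKL 14 h library 1 or the library 2 given both agents (0.0855 to 0.0927). Tkt rose at 24 h from 64.9 and 71.8 RPKM with RANKL to 104 and 110 (0.62 ± 0.15, adjusted p 0.00829), lost without RANKL 24 h library 1 or the library 2 given both agents (0.0667 to 0.0732). With the block it was also higher at 14 h (0.42, adjusted p 0.000137).

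Rpe, ribulose-5-phosphate 3-epimerase, was at 19.9 and 19.4 RPKM untreated, 18.5 and 20.6, 19.6 and 18.3, and 17.0 and 20.5 with RANKL at 4, 14 and 24 h, and 20.8 and 20.4, 24.7 and 25.3, and 24.7 and 27.3 with both agents. The libraries given both agents lay above those given RANKL at 14 and 24 h. The change was 0.35 ± 0.11 at 14 h (adjusted p 0.0363) and 0.44 ± 0.11 at 24 h (0.00994). The 14 h call ended without any 1 of the 4 libraries (0.0857 to 0.227) and the 24 h call without RANKL library 1 or the library 2 given both agents (0.115). Kansl1l, on the opposite strand, overlaps 17.92% of the exon bases of Rpe and rose more, by 1.35 ± 0.12 at 14 h (adjusted p 4e-06) and 1.68 ± 0.12 at 24 h (4.3e-07), with a mean of 1039 counts per library against 3177 for Rpe. Without a stated strand setting, reads of the pair cannot be told apart. With the block, Taldo1 (0.35, adjusted p 0.000382), Pgls (0.41, 0.00182) and Rpia (0.31, 0.000749) were called higher at 24 h as well. In that fit all 7 pentose phosphate genes tested were higher, against 23.1% of all genes. Fam129c, on the same strand, overlaps 20.58% of the Pgls exon bases and also rose in this comparison, by 0.89 ± 0.28 (adjusted p 0.0325), so the Pgls value is uncertain to that extent.

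Aldoc was at 12.7 and 13.1 RPKM with both agents at 4 h, 18.4 and 20.04 at 14 h and 28.0 and 30.4 at 24 h, and the ranges at 14 and 24 h were clear of those with RANKL. Its change, 1.25 ± 0.16 at 14 h (adjusted p 8.28e-05) and 1.09 ± 0.16 at 24 h (0.00017), was kept without any 1 of the libraries compared. Pkm, whose product makes pyruvate, rose from 657 and 806 RPKM with RANKL at 14 h to 1102 and 1207 (0.61 ± 0.17, adjusted p 0.0165) and from 722 and 913 at 24 h to 1192 and 1407 (0.64 ± 0.17, 0.011). Both calls ended without library 1 of RANKL or library 2 of both agents at that hour (0.116 to 0.146). These gene-level values do not separate the Pkm isoforms.

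Among the lactate genes, Slc16a1 fell at 14 h from 128 and 132 RPKM with RANKL to 94.3 and 107 (-0.41 ± 0.12, adjusted p 0.0274), a call that ended without either RANKL library or the library 1 given both agents (0.0681 to 0.251). With the block all 3 tested lactate genes were lower at 14 h and at 24 h (background 20.6% and 23.5% lower). The changes were -0.68 (adjusted p 9.17e-05) and -0.44 (0.00309) for Slc16a3, -0.26 (0.039) and -0.27 (0.0256) for Ldha, and -0.31 (0.00205) for Slc16a1 at 24 h. Without the block and without RANKL 24 h library 2, the 24 h values were 0.10 for Slc16a3 and 0.09 for Ldha. Hk2 was also lower in that fit at all 3 hours, by -0.41 (adjusted p 0.00129), -0.33 (0.00488) and -0.35 (0.00262), and Eno1 at 14 h by -0.36 (0.00161) and at 24 h by -0.31 (0.00467). Slc2a1 was higher with the block at 14 h (0.48, adjusted p 0.000805) and 24 h (0.41, 0.00271), as was Pfkfb4 (0.43, 0.000928, and 0.51, 0.000123).

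I-BET alone against untreated cells gives its effect without RANKL together with that of hours in culture, since untreated cells were of hour 0. Hk3 fell at 14 and 24 h, Pdk1 fell at 4 h, and Rpe and Pdk3 rose at 14 and 24 h, with Aldoc and Pdha1 added at 24 h. Called higher and lower were 0 and 1 at 4 h (background 4.03% and 6.48%), 2 and 1 at 14 h (5.29% and 8.37%) and 4 and 1 at 24 h (7.5% and 10.2%). With the block they were 2 and 10 (12.8% and 16.2%), 9 and 2 (14.4% and 15.4%) and 14 and 4 (18.1% in each direction). The members' median log2 fold change was -0.15, 0.08 and 0.16, against 0.01, 0.02 and 0.02 over all genes.

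Hk3 was at 6.12 and 8.48 RPKM with I-BET at 4 h, 4.38 and 4.99 at 14 h and 3.63 and 3.64 at 24 h. It was lower than in both untreated libraries throughout, by -1.05 ± 0.20 at 14 h (adjusted p 0.00325) and -1.41 ± 0.21 at 24 h (0.000291), with or without any 1 of the libraries compared. With both agents it was at 5.96 and 8.0045, 3.96 and 3.90, and 3.45 and 3.62 RPKM, close to I-BET alone. Hk3 thus stood below untreated cells after each of the 3 treatments at 14 and 24 h.

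Aldoc with I-BET alone was at 13.2 and 13.1, 21.1 and 19.4, and 26.4 and 31.1 RPKM at the 3 hours. It exceeded both untreated libraries at 14 and 24 h, by 0.43 at 14 h (block, adjusted p 0.00958) and 0.95 ± 0.16 at 24 h (0.000874, kept without any 1 of the libraries). Pdk1 at 4 h was at 8.99 and 8.23 RPKM (-0.45 ± 0.13, adjusted p 0.0432), lost without any 1 of the 4 libraries (0.0977 to 0.276).

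Pdk3 with I-BET alone was at 16.2 and 14.1, 20.6 and 19.7, and 20.2 and 21.4 RPKM, and with both agents at 15.2 and 13.3, 19.1 and 18.3, and 20.6 and 19.8. At 14 and 24 h it was above the untreated libraries in both. With I-BET its changes were 0.30 ± 0.09 (adjusted p 0.0367) and 0.36 ± 0.09 (0.011). They ended without any 1 of the 4 libraries at 14 h (0.143 to 0.189), and at 24 h without either untreated library or I-BET library 2 (0.0691 to 0.101). Rpe with I-BET alone was at 19.7 and 19.5, 27.5 and 27.1, and 26.2 and 27.5 RPKM, with changes of 0.38 ± 0.11 (adjusted p 0.0379) and 0.37 ± 0.11 (0.0366), each lost without any 1 of the 4 libraries (0.0821 to 0.276). Its overlapping neighbour Kansl1l rose by 0.64 ± 0.12 (adjusted p 0.00242) and 0.72 ± 0.12 (0.000752).

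Pdha1 with I-BET alone was at 31.8 and 30.7, 32.9 and 33.7, and 35.7 and 37.0 RPKM, and with both agents at 30.7 and 29.9, 29.5 and 31.7, and 35.7 and 37.8. All 12 of these libraries were above the untreated ones, and at 24 h below those with RANKL alone. The change with I-BET at 24 h was 0.36 ± 0.09 (adjusted p 0.00965), lost without untreated library 1 or I-BET library 2 (0.087 to 0.103). Map3k15 was at -0.50 ± 0.22 there (adjusted p 0.142). G6pdx with I-BET alone was at 143 and 117, 153 and 126, and 138 and 125 RPKM, and Pgd at 126 and 127, 117 and 114, and 111 and 120. Both genes were called higher with the block alone, G6pdx by 0.26 at 14 h (adjusted p 0.0104) and 0.19 at 24 h (0.049), and Pgd by 0.24 at 4 h (0.0196). At 24 h with the block, Tkt (0.37, adjusted p 0.000631), Pgls (0.29, 0.024) and Rpia (0.21, 0.0202) were also higher. Taldo1 was lower there (-0.30, adjusted p 0.00185), as it was with RANKL at 24 h. At 4 h 4 trunk genes were called lower with the block alone, Tpi1 (-0.42, adjusted p 0.00301), Pgam1 (-0.42, 0.00326), Pgk1 (-0.25, 0.0344) and Eno3 (-0.31, 0.0438). All 3 tested lactate genes were lower in that fit, Slc16a3 by -0.66 (0.000332), Ldha by -0.40 (0.0041) and Slc16a1 by -0.23 (0.0285). Of all genes, 16.2% were lower at 4 h with the block.

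Both agents against I-BET alone asks what RANKL changed when I-BET was present, and it shares no library with RANKL against untreated cells. No member was called at 4, 14 or 24 h in edgeR's test. Of all genes, 0.48% were higher and 0.0374% lower at 4 h, 0.549% and 0.355% at 14 h, and 0.106% and 0.156% at 24 h. An unadjusted p under 0.05 was reached by 0, 2 and 0 members, and DESeq2 called 0, 1 and 0. The block called none at 4 h (background 2.06% and 1.01%), 2 higher and 2 lower at 14 h (3.57% and 3.01%), and 4 higher at 24 h (1.12% and 1.83%).

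The largest difference without the block was Eno3 at 14 h, at 10.7 and 12.8 RPKM with I-BET and 6.81 and 8.22 with both agents (-0.60 ± 0.17, adjusted p 0.145; block 0.00223). With the block, Slc16a3 was higher at 14 h (0.48 ± 0.11, adjusted p 0.0129) and 24 h (0.49 ± 0.11, 0.0234), Slc2a1 higher (0.37, 0.0336) and Pfkm lower (-0.42, 0.0221) at 14 h, and Pfkl (0.31, 0.0298), Tpi1 (0.43, 0.0182) and Pgk1 (0.39, 0.0147) higher at 24 h. Slc16a3 at 14 h was at -0.04 without the block and without library 2 of both agents. For G6pdx the RANKL effect under I-BET was -0.01 ± 0.12 at 14 h and -0.16 ± 0.12 at 24 h, and for Aldoc -0.03 ± 0.16 and 0.02 ± 0.16. For Hk3 it was -0.21 ± 0.20 and -0.04 ± 0.20, and for Pdha1 -0.08 ± 0.09 and 0.02 ± 0.09.

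**Figure D3:**
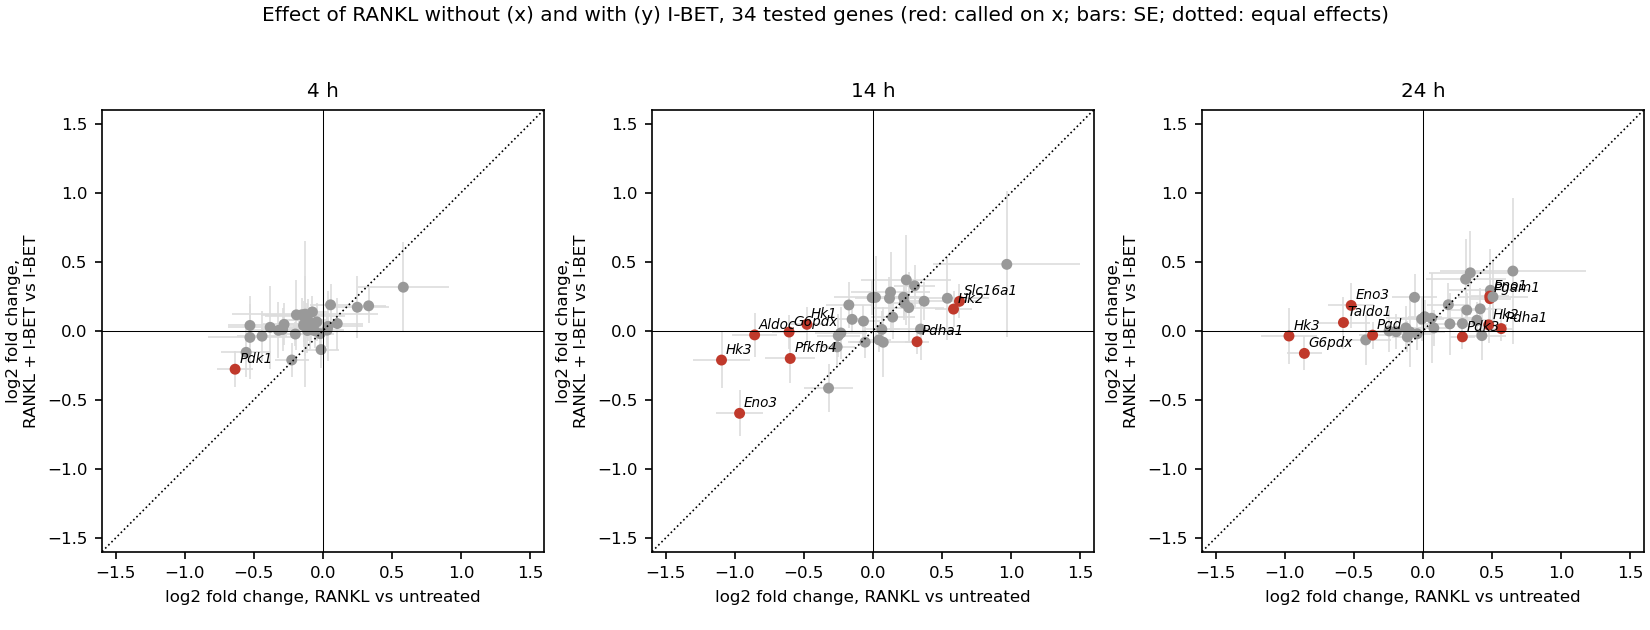
Log2 fold change of RANKL against untreated (horizontal) and of RANKL plus I-BET against I-BET alone (vertical) for 34 genes at 4, 14 and 24 h; bars are SE, red points are genes called on the horizontal axis and the dotted line marks equal effects. At 24 h G6pdx lies at -0.86 and -0.16 and Pdha1 at 0.57 and 0.02, while Eno3 at 14 h lies at -0.97 and -0.60. The horizontal values also hold hours in culture, since untreated cells were of hour 0.

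The difference between the 2 RANKL effects was itself tested as an interaction. The effect without I-BET is measured from hour 0 and that under I-BET within the same hour. Hours in culture are therefore part of the difference and cannot be told apart from it. At 24 h, 1 member was called higher and 1 lower (background 3.94% and 1.32%): G6pdx, with a RANKL effect 0.69 ± 0.17 log2 units higher under I-BET (adjusted p 0.0324), and Pdha1, with one 0.55 units lower (-0.55 ± 0.12, adjusted p 0.016). The G6pdx call ended without any 1 of 6 of the 8 libraries (0.0585 to 0.135), all but untreated library 2 and RANKL 24 h library 2. The Pdha1 call ended without any 1 of 5 (0.0576 to 0.0997), all but RANKL library 1, I-BET library 1 and the library 2 given both agents. At 14 h no member was called (background 2.28% and 0.499%), although 7 had an unadjusted p under 0.05 and DESeq2 called 4. Nearest were Aldoc (0.83 ± 0.23, adjusted p 0.0741) and G6pdx (0.60 ± 0.17, 0.098). At 4 h neither edgeR nor DESeq2 called a member, 1 had an unadjusted p under 0.05, and 0% of all genes were called in either direction.

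With the block, the interaction was called for 1 member, Pfkl, at 4 h (0.47, adjusted p 0.0366; background 0.835% higher and 0.38% lower). At 14 h it was called for 5 higher and 3 lower (7.29% and 4.41%) and at 24 h for 5 and 5 (10.4% and 7.97%). Hk3 was among them at both hours (0.89, adjusted p 0.000943, and 0.94, 0.00036), as was Hk2 (-0.43, 0.0266, and -0.44, 0.0169). Others at 24 h were Taldo1 (0.65, adjusted p 7.07e-05), Eno3 (0.71, 0.0026), Pgd (0.34, 0.0302), Pdk3 (-0.33, 0.0405), Pdhb (-0.31, 0.016) and Pfkm (-0.46, 0.0385).

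Along the RANKL course itself, most calls came between 4 and 14 h, with 6 members higher and 3 lower (background 8.02% and 9.71%). Of the genes called without the block, Pfkl had the largest rise, from 13.2 and 16.3 RPKM to 23.6 and 35.3 (1.07 ± 0.30, adjusted p 0.0266), followed by Hk2 (0.60 ± 0.13, 0.00615), Slc16a1 (0.60 ± 0.12, 0.00441), Pgam1 (0.58 ± 0.15, 0.0169), Pdha1 (0.41 ± 0.09, 0.0054) and Gapdh (0.38 ± 0.12, 0.0481). Eno3 (-0.85 ± 0.17, adjusted p 0.00286), Hk3 (-0.77 ± 0.20, 0.0175) and G6pdx (-0.55 ± 0.12, 0.0074) fell. Of these 9 calls, that of Eno3 held without any 1 of the 4 libraries, and the others ended without at least 1 of them: Gapdh, Pfkl and Pgam1 without either RANKL 4 h library or RANKL 14 h library 2 (0.0601 to 0.344), Hk2, G6pdx and Pdha1 without RANKL 4 h library 1 or RANKL 14 h library 2 (0.0594 to 0.0822), Hk3 without RANKL 4 h library 2 or RANKL 14 h library 1 (0.113 to 0.146), and Slc16a1 without RANKL 4 h library 1 (0.064). The block gave 15 higher and 8 lower (19.9% and 18.8%), including Slc16a3 at 1.08 ± 0.11 (adjusted p 8.8e-07), which was at 1.0985 ± 0.53 without the block (0.189).

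From 14 to 24 h of RANKL, 3 members rose and none fell (background 1.13% and 1.78%). These were Hk1 (0.49 ± 0.12, adjusted p 0.0478), Pfkm (0.75 ± 0.18, 0.0373), which went from 4.26 and 5.12 to 6.87 and 9.39 RPKM, and Aldoc (0.73 ± 0.16, 0.0253). All 3 calls ended without RANKL 14 h library 1 or RANKL 24 h library 2 (0.213 to 0.36), and those of Hk1 and Pfkm also without RANKL 14 h library 2 (0.0789 to 0.0906). The block gave 8 higher and 3 lower (6.44% and 10.4%), among them Pdha1 (0.25, adjusted p 0.00754) and Pdhb (0.33, 0.000981) higher and G6pdx (-0.25, 0.0261) and Taldo1 (-0.34, 0.00198) lower.

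The isoform makeup of the enzyme families differed between groups, given here as shares of summed RPKM and described without a test. Hk2 made up 42.1% and 43.3% of hexokinase RPKM in untreated cells, 65.0% and 63.2% with RANKL at 14 h and 54.7% and 56.3% with both agents at 14 h. Hk3 made up 20.2% and 21.3% untreated, 9.19% and 10.2% with RANKL at 14 h, and 8.84% and 8.496% with both agents at 24 h. In every group at 14 and 24 h the Hk3 share was at most 12.5%, and in every group at 0 and 4 h it was at least 15.97%. Among phosphofructokinase genes Pfkl held from 41.3% (RANKL 4 h library 1) to 63.9% (both agents at 14 h, library 2). Aldoc made up 2.33% to 2.53% of aldolase RPKM with RANKL at 14 h and 7.05% to 7.40% with I-BET at 24 h, Aldoa holding the rest. Eno3 made up 6.53% and 6.55% of enolase RPKM untreated and 2.79% and 2.62% with RANKL at 14 h.

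**Figure D4:**
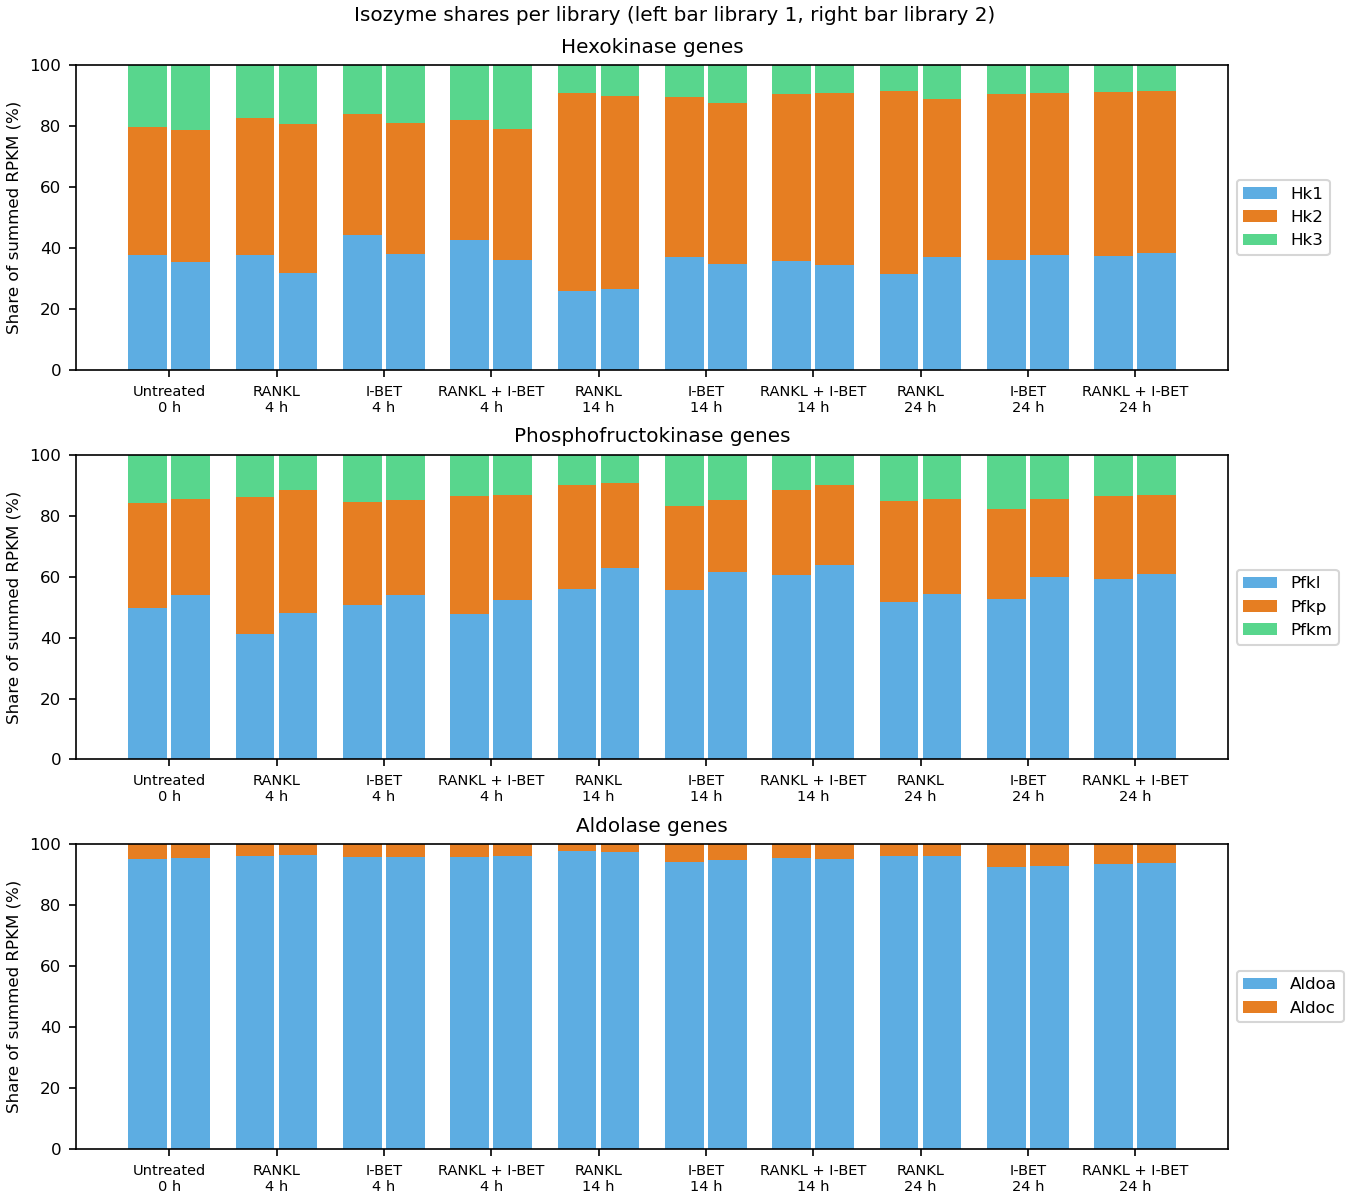
Share of summed RPKM (vertical axis, 0 to 100%) held by each gene of the hexokinase, phosphofructokinase and aldolase families, per library, with library 1 left and library 2 right in each of the 10 groups. The Hk2 band is widest with RANKL at 14 h (65.0% and 63.2%) and the Hk3 band is narrower in every group at 14 and 24 h than at 0 and 4 h.

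The 2 libraries of a group differed in the same direction for several members. Slc16a3, Slc2a1, Tpi1, Pfkl, Pgk1 and Ldha were higher in library 2 in all 10 groups, with a median ratio of 1.808, 1.369, 1.332, 1.316, 1.288 and 1.258. G6pdx (median ratio 0.852) and Hif1a (0.864) were lower in library 2 in 9 of 10 groups. The block takes up differences of this kind. What library number stands for is not stated in the labels.

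**Figure D5:**
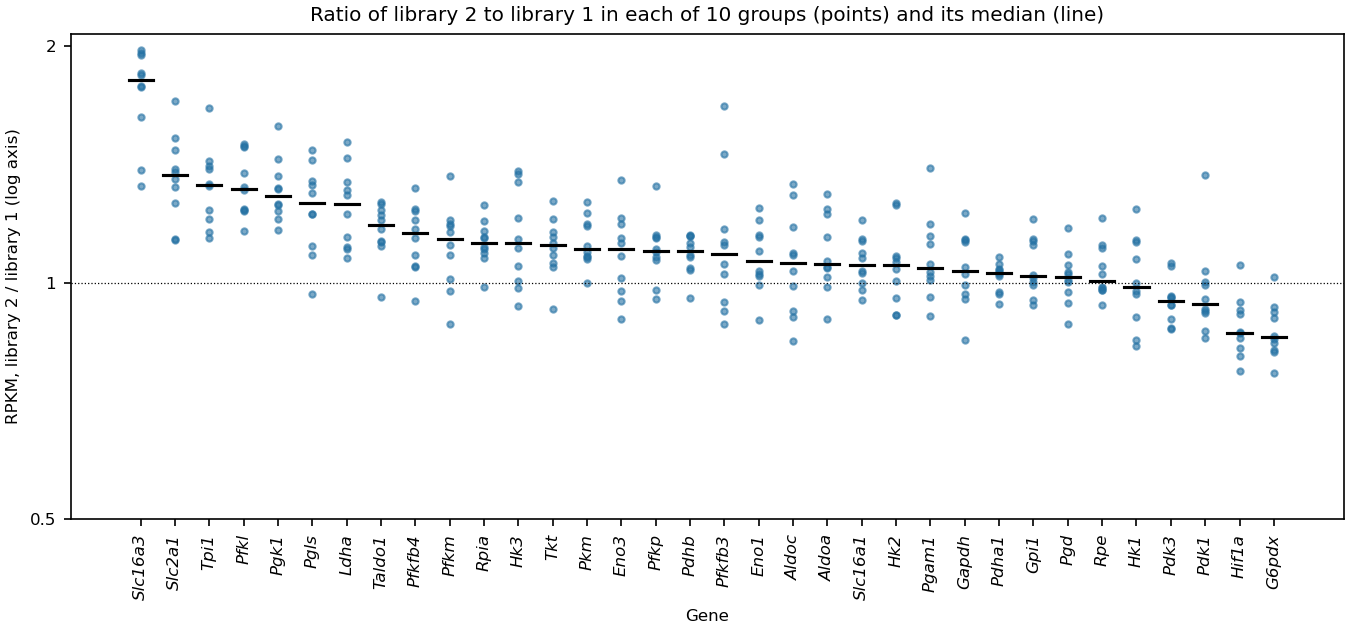
Ratio of RPKM in library 2 to library 1 (vertical log axis) for each of the 34 genes (horizontal axis), with 1 point for each of the 10 groups and a line at the median. Slc16a3 sits highest, at a median of 1.808, with all 10 points above 1, and G6pdx lowest, at 0.852.

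Other genes of the same pathways gave 37 tested of 47 listed. Called higher and lower with RANKL against untreated were 0 and 1 at 4 h (background 2.08% and 1.83% of all genes), 4 and 8 at 14 h (8.31% and 10.1%), and 5 and 7 at 24 h (8.04% and 10.9%). With the block they were 3 and 6 (6.72% and 7.77%), 6 and 12 (19.1% and 17.2%), and 9 and 9 (18.7% and 18.1%). For both agents against RANKL they were 2 and 1 at 4 h (4.93% and 6.46%), 5 and 5 at 14 h (10.8% and 11.2%), and 11 and 8 at 24 h (13.9% and 12.9%). With the block these became 5 and 6 (13.7% and 14.4%), 10 and 7 (19.7% and 20.6%), and 12 and 9 (23.1% and 23.5%). H6pd, the endoplasmic reticulum counterpart of G6pdx, fell with RANKL at 24 h by -1.4999 ± 0.17 (adjusted p 2.92e-05), and its interaction at 24 h was 1.44 ± 0.24 (0.00241). Shpk, sedoheptulose kinase, was lower with RANKL at 14 h (-1.14 ± 0.26, adjusted p 0.00634) and higher when I-BET was added, by 1.30 ± 0.25 at 14 h (0.00188) and 1.38 ± 0.25 at 24 h (0.000826). Pdk2, another kinase of pyruvate dehydrogenase, fell with RANKL at 14 h (-1.36 ± 0.32, adjusted p 0.00906) and 24 h (-1.59 ± 0.33, 0.00377). The glucose transporter Slc2a3 fell with I-BET alone at all 3 hours, by -0.71 ± 0.15 (adjusted p 0.00708), -1.24 ± 0.15 (7.26e-05) and -1.49 ± 0.15 (1.09e-05). For both agents against I-BET alone, edgeR called 0 of the 37 at 4, 14 and 24 h without the block, and 1, 2 and 0 with it. Without the block, 0.48% of all genes were higher and 0.0374% lower at 4 h, 0.549% and 0.355% at 14 h, and 0.106% and 0.156% at 24 h. With the block these shares were 2.06% and 1.01%, 3.57% and 3.01%, and 1.12% and 1.83%.

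Of 26 listed HIF-1 partners, regulators and targets outside glycolysis, 23 were tested. Called higher and lower with RANKL against untreated were 0 and 0, 2 and 2, and 4 and 0 at 4, 14 and 24 h, against the same shares of all genes as for the other pathway genes. With the block they were 2 and 0, 4 and 5, and 7 and 1. For both agents against RANKL they were 3 and 0 at 4 h (background 4.93% and 6.46%), 7 and 2 at 14 h (10.8% and 11.2%), and 5 and 2 at 24 h (13.9% and 12.9%). With the block these became 5 and 1, 9 and 3, and 9 and 5 (13.7% and 14.4%, 19.7% and 20.6%, and 23.1% and 23.5% of all genes). Vegfa, the vascular growth factor and a HIF-1 target, rose with RANKL by 1.25 ± 0.36 at 14 h (adjusted p 0.0258) and 1.96 ± 0.36 at 24 h (0.00164), and was lower with both agents than with RANKL by -2.13 ± 0.37 (0.000891) and -2.87 ± 0.37 (6.27e-05). Other genes of this list went the other way. Ndrg1 (-2.24 ± 0.49, adjusted p 0.00538) and Plod2 (-1.09 ± 0.33, 0.0317) fell with RANKL at 14 h. At that hour Plod2 (1.20 ± 0.32, adjusted p 0.0151) and Epas1 (1.64 ± 0.49, 0.0262) were higher with both agents than with RANKL. Cited2, which competes with HIF-1 for its coactivator, rose with I-BET alone by 1.24 ± 0.11 at 4 h (adjusted p 2.34e-05). Hif1a itself was at 27.5 to 44.6 RPKM in the 20 libraries and was called in no comparison without the block.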

How the data were processed

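Poly(A) RNA was sequenced with paired ends, and per the labels' protocols libraries were made with NEBNext kits. Per the submitters' processing notes, FastQC, STAR 2.5.3a and DESeq2 1.16.1 were used, with GRCm38 and mm10 named as builds. No source used here names the counting tool or says whether strand was used. The authors deposited whole read counts per gene and RPKM. The deposited RPKM equalled count over a fixed gene length and the library total to a relative deviation of 1e-14 among genes above 50 counts in every library.

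Counts of all 20 libraries were fitted with edgeR 4.0.16 in R 4.3.3 (TMM normalization, filterByExpr, robust quasi-likelihood test on 10 group means, 10 residual degrees of freedom), which tested 16042 genes, and p-values were Benjamini-Hochberg adjusted over all of them. Fold changes come from this fit and levels from the RPKM. The script was checked on simulated data. Precision was set by 2 libraries per group and by depth, from 19051780 to 62313792 counts a library.

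Alternatives were DESeq2 1.42.0, its size factors in edgeR, no low-count filter, only the groups compared, leaving out each library, and library number as a block. Deviations from the group means were correlated for same-numbered libraries, with 0.221 as the lowest and 0.596 as the highest of 45 group pairs and a median of 0.454. The numbers come from the labels, which do not say what they mark, and were taken to pair the samples from these correlations. The block lowered the biological coefficient of variation from 0.162 to 0.0751. The members, the other lists and the tests were chosen with earlier results of these data known. Every member could be named. Values in every library are given for members called in at least 3 of 12 comparisons of treatments, and for others where a result needs them. Other pathway genes were limited to at most 3 per list and comparison. Shares of all genes are given for the main fit and the block only. They are not given for DESeq2, the other alternatives or the counts by unadjusted p.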

Additional observations from a re-analysis of the deposited data

Results flagged for a closer look

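The RANKL effect at 24 h differed with and without I-BET for 2 members by the test of the difference itself. For G6pdx the difference was 0.69 on the log2 scale, and for Pdha1 it was -0.55. Both calls depended on single libraries, as given above.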

How the results depend on the processing

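Of 55 member calls made in 17 comparisons, DESeq2 and the replicate block each kept 55, the other size factors 52, no low-count filter 41 and the fits to only the groups compared 24. Leaving out any 1 library kept 16 and ended 39, with the lone library of the group assumed to vary like the other groups. None of the 55 reversed under these alternatives.

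With the replicate block, in the order 4, 14 and 24 h, members called were 9, 17 and 22 for RANKL, 9, 16 and 23 for both agents against RANKL, and 12, 11 and 18 for I-BET. They were 4 and 4 for both agents against I-BET at 14 and 24 h, 1, 8 and 10 for the interaction, 23 for RANKL 14 against 4 h and 11 for 24 against 14 h. The block changed the count at no other hour. Without the low-count filter they were 4 for RANKL at 4 h, 10 for both agents against RANKL at 24 h, 2 for I-BET at 4 h and 2 for the interaction at 14 h. With only the groups compared they were 0 and 5 for RANKL at 4 and 24 h, 2 for both agents against RANKL at 14 h, 0, 1 and 2 for I-BET, 1 for the interaction at 24 h, and 1 and 0 for the RANKL hours. DESeq2 gave 3 for RANKL at 4 h, 1 for both agents against RANKL at 4 h, 2 for I-BET at 4 h, 1 for both agents against I-BET at 14 h and 4 for the interaction at 14 and at 24 h. With the other size factors, both agents against RANKL at 4 h gave 1. Smaller shifts with them were to 9 for RANKL at 24 h, 7 for both agents against RANKL at 24 h, 2 for I-BET at 14 h and 8 for RANKL 14 against 4 h. For the low-count filter, the groups compared and DESeq2, only the larger shifts are listed. The cause was not tested. Apart from the block, shares of all genes are not given for these fits or for those that leave out a library. Shifts in these counts therefore cannot be read as particular to the members.

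Leaving out 1 library gave 0, 5 to 7 and 3 to 6 calls for RANKL, 0 to 1, 2 to 5 and 3 to 10 for both agents against RANKL, and 0, 1 and 2 to 4 for I-BET. It gave 0 for both agents against I-BET at every hour, 0, 0 to 1 and 0 to 3 for the interaction, 2 to 8 for RANKL 14 against 4 h and 0 to 4 for 24 against 14 h. Of the pairs of member and comparison called with or without the block, those that turned in sign without 1 library were called only with it. Leaving out each library of the comparison in turn, RANKL at 24 h against untreated ranged from -0.12 to 0.68 for Tpi1 and from -0.10 to 0.62 for Pgk1, and RANKL 24 against 14 h from -0.14 to 0.67 for Tpi1. Both agents against RANKL at 24 h ranged from -0.50 to 0.036 for Pgam1, from -0.56 to 0.091 for Ldha and from -0.92 to 0.10 for Slc16a3. The turned sign in these 6 came without RANKL 24 h library 2. Slc16a3 ranged from -1.003 to 0.11 for both agents against RANKL at 4 h, and was above 0 also without library 1 of both agents (0.02). It ranged from -0.82 to 0.10 for I-BET at 24 h, and was above 0 also without untreated library 2 (0.035). For both agents against I-BET at 14 h it ranged from -0.041 to 1.02, and Pgk1 for RANKL 14 against 4 h from -0.023 to 0.50. With 2 libraries per group, differences that did not pass may be beyond reach.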
